A study of Mus musculus with 8 samples.

Results

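Endothelial identity genes were followed in H3K27Ac ChIP-Seq of mouse ventricles in which *Arid1a* had been deleted from cardiomyocytes. The 10 genes were the receptors *Kdr*, *Flt1*, *Tek* and *Tie1*, the adhesion molecules *Pecam1* and *Cdh5*, and the transcription factors *Erg*, *Fli1*, *Sox17* and *Sox18*. A peak was assigned to one of them when the centre of the peak lay nearer to a curated RefSeq transcription start of that gene than to any other gene's start. This gave 87 of the 45980 peaks on assembled chromosomes of mm10, and each of the 10 genes had at least 1 peak. Nearest position does not show which gene a peak acts on.

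Chromatin came from whole ventricles at postnatal day 7. Controls were *Arid1a* f/f mice, and *Arid1a cKO* mice were αMHC-Cre;*Arid1a* f/f, so both groups carried the floxed alleles and controls lacked Cre. The αMHC promoter drives Cre in cardiomyocytes, and the endothelial cells that express the 10 genes lie outside the targeted cell type. Each genotype contributed 2 H3K27Ac libraries and 2 input libraries, for 8 libraries in all.

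The values were the authors' group means, in normalized reads per peak, with 0 columns for single libraries. No replicate error or depth could therefore be given, and each difference below describes a pair of group means, with no test made here. The table's columns of the authors' own comparison were not used. How the libraries were scaled is not given in the sources used here, and another scaling could shift all differences, and with them the counts above and below 0 and the differences near 0 at starts. A difference is the log2 level in *Arid1a cKO* minus the log2 level in control, and a peak counted as lower or higher when its difference was at least 1 in size, a fold change of at least 2. In whole tissue, fewer cells of a type and less H3K27Ac per cell cannot be told apart. The peak over the *Arid1a* start held 1607 normalized reads in control and 1663 in *Arid1a cKO* (difference 0.05), which does not check the deletion because the mark does not read the floxed exons.

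H3K27Ac marks active promoters and enhancers. The endothelium lines blood vessels and the chambers of the heart, and endothelial cells are abundant among the non-myocytes of the ventricle. KDR (VEGFR2) is the main signalling receptor for VEGF-A, FLT1 (VEGFR1) binds the same ligand tightly and limits its access to KDR, TEK is the receptor for angiopoietins, and TIE1 is its partner receptor. PECAM1 and the cadherin CDH5 hold neighbouring endothelial cells together. ERG and FLI1 belong to the ETS family and SOX17 and SOX18 to the SOXF family, and factors of both families bind enhancers of many endothelial genes, often beside GATA factors.

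RefSeq promoter windows of GRCm38.p6, from 250 bases before to 50 bases after a start, were given for 5 of the 10 genes, *Tek*, *Tie1*, *Kdr*, *Flt1* and *Erg*. They are shown because the level over these starts is described below, on the strand of the gene and with matches in capitals, for *Erg* at the 1 of its 3 starts that lies in a peak. The letters searched on both strands were ACAGGAA or its variant ACCGGAA for ETS factors, AACAGGAA for a forkhead and an ETS core side by side (it contains the first ETS form), AACAAT for SOX, AGATAA for the family of GATA factors, and CATTCC for TEAD, which can overlap a reversed ETS form. The *Tek* window held 1 SOX and 1 GATA match, the *Tie1* window 1 ETS match, the *Erg* window 1 SOX and 1 GATA match, and the *Kdr* and *Flt1* windows none of them.
*Tek*, chr4:94739039-94739338, plus strand: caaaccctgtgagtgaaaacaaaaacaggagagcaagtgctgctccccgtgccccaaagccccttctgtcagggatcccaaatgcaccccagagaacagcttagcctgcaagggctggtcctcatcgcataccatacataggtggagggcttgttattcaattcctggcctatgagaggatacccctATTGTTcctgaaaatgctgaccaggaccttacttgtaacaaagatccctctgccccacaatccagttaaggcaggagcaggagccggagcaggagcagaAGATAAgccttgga
*Tie1*, chr4:118489800-118490099, minus strand: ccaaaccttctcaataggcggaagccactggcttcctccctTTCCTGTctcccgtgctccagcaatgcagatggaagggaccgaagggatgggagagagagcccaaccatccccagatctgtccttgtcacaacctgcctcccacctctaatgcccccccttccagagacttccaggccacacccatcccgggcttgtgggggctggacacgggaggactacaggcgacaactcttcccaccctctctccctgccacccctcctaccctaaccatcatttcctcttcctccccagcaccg
*Erg*, chr16:95459299-95459598, minus strand: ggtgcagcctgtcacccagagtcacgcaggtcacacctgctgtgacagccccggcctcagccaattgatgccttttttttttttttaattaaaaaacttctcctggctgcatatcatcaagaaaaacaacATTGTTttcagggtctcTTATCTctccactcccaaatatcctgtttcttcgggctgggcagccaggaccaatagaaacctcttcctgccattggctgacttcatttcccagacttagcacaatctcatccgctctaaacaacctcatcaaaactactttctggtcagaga
*Kdr*, chr5:75978406-75978705, minus strand: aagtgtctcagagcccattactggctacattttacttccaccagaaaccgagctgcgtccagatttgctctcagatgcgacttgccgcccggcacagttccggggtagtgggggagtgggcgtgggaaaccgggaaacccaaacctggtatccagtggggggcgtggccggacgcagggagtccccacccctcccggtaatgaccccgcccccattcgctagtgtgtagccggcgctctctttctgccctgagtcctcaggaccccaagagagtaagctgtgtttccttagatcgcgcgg
*Flt1*, chr5:147725962-147726261, minus strand: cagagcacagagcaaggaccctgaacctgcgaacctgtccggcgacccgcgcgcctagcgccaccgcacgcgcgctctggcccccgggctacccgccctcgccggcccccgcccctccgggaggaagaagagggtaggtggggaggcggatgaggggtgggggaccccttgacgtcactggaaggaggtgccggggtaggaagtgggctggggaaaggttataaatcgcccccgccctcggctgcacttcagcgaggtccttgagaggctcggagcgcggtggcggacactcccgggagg

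Of the 7 member windows (3 of them for *Erg*), 1 held an ETS form, against 12.0% of all 32817 windows. The window composition differed among the receptors. *Tek* had a GC content of 52.0% and 3 CpG dinucleotides, *Tie1* 60.3% and 7, *Kdr* 60.7% and 19, and *Flt1* 70.7% and 29. A match is a run of letters and not a measured site.

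Away from the starts, the central 300 bases of 5 peaks are shown on the plus strand, with the same letters in capitals. The first pair of windows, in the peak over the *Kdr* start and in a strong *Kdr* peak 37.8 kb upstream, each held 2 forkhead and ETS matches, and these peaks had nearly equal levels in both groups. This pair was taken from strong peaks that hold such a match, and the other windows were taken by their difference. Matches can therefore not be compared between them. The *Cdh5* window belongs to the member peak with the largest decrease and held 1 TEAD match. The *Flt1* windows belong to the pair of member peaks with the largest increases, and the first of them held 1 ETS and 1 TEAD match while the second held none of the letters searched.
*Kdr* start peak, chr5:75974564-75974863: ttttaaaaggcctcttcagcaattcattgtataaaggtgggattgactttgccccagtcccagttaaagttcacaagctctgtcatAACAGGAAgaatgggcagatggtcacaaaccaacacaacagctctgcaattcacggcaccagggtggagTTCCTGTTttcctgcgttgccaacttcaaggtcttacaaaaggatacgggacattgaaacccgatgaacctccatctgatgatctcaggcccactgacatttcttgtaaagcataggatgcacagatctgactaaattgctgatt
*Kdr* upstream peak, chr5:76016079-76016378: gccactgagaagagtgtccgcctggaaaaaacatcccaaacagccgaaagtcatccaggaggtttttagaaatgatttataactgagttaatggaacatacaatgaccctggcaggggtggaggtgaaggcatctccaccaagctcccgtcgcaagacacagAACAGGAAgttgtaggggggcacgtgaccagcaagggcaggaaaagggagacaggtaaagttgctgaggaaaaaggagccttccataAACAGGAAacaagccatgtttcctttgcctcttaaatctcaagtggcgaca
*Cdh5* distal peak, chr8:103873580-103873879: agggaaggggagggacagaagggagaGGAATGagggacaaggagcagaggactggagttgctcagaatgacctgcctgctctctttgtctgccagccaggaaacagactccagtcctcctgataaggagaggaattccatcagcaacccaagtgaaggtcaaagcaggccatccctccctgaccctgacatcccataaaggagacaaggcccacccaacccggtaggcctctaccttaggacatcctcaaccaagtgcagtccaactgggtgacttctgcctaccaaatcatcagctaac
*Flt1* intron peak, chr5:147606816-147607115: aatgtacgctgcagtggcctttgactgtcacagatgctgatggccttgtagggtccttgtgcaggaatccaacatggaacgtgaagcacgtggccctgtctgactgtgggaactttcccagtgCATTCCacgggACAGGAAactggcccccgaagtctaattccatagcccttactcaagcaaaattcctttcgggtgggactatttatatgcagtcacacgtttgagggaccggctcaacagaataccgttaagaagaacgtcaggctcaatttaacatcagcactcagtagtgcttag
*Flt1* second intron peak, chr5:147615213-147615512: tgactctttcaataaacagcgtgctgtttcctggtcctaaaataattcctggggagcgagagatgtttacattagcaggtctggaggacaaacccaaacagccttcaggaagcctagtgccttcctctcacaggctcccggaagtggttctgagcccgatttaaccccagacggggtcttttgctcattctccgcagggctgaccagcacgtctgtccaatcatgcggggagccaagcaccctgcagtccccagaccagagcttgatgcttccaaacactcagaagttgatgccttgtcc

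The peaks over the starts of the 10 genes differed little between the groups. Each gene had a peak that covered a start, and each of these peaks was in the highest quartile of mean level, with 126 or more normalized reads. Differences ran from −0.02 to 0.23 with a median of 0.04, and 7 of 10 were above 0. Over all 12022 peaks that covered a start, the median was 0.01, 50.1% were above 0 and 48.0% below 0. None of the 10 was lower or higher by the fold, where 1.70% of all peaks over a start were lower and 1.16% higher. With shares this small, 0 of 10 does not set the members apart. The levels were also unlike, with a median of 960 normalized reads in control at the 10 and 151 over all peaks over a start.

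Among receptors, the *Kdr* start peak (chr5:75968004-75981422) held 1160 normalized reads in control and 1144 in *Arid1a cKO*, a difference of −0.02. The *Flt1* start peak (chr5:147720867-147727351) held 385 and 452, and its difference of 0.23 was the largest of the 10. The *Tek* start peak (chr4:94737987-94743695) held 388 and 405 (0.06). The *Tie1* start peak (chr4:118487610-118491176) was the weakest of the 10 with 182 and 186 (0.03). The paired means of 3 receptor starts were within 0.06 of each other, and *Flt1* was modestly higher in *Arid1a cKO*.

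For the adhesion genes, the *Cdh5* start peak (chr8:104094241-104109626) held 1479 normalized reads in control and 1618 in *Arid1a cKO* (difference 0.13). It was 15.4 kb wide and also covered the start of *Gm29682*, and the mark cannot be divided between *Cdh5* and *Gm29682*. The *Pecam1* start peak (chr11:106706271-106716966) held 760 and 755 (−0.01).

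The start peaks of *Erg*, *Sox18* and *Fli1* were among the 4 strongest of the set. *Erg* (chr16:95445848-95465498) held 1552 normalized reads in control and 1563 in *Arid1a cKO* (0.01), over 1 of its 3 curated starts. *Fli1* (chr9:32536500-32545813) held 1409 and 1448 (0.04). *Sox18* (chr2:181667592-181681422) had this single peak, with 1552 and 1629 (0.07), and the peak also covered the start of *Tcea2*. *Sox17* (chr1:4491306-4498427) held 523 and 516 (−0.02). None of these 4 means moved by more than 0.07 on the log2 scale.

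**Figure D1:**
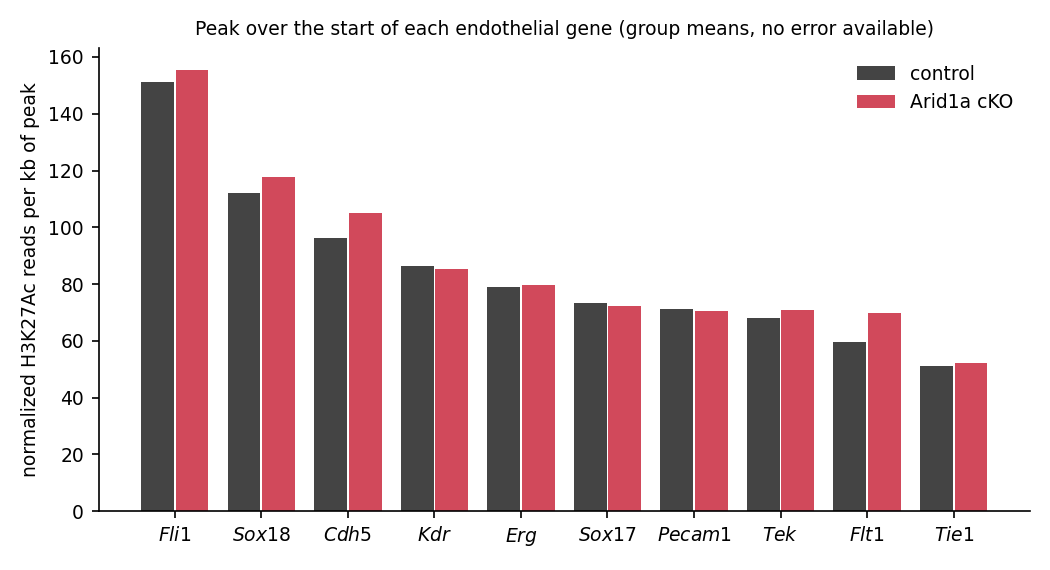
Normalized H3K27Ac reads per kb of peak (vertical axis) in the peak over the start of each endothelial gene, in control (grey bars) and *Arid1a cKO* (red bars); bars are the authors' group means and no error is available. Genes are in the order of their control level, from *Fli1* (151 reads per kb) to *Tie1* (51.1), and the paired bars are nearly equal except at *Flt1* (59.4 and 69.7) and *Cdh5* (96.1 and 105).

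Per kb of peak, the order of levels in control was *Fli1* (151 normalized reads per kb), *Sox18* (112), *Cdh5* (96.1), *Kdr* (86.5), *Erg* (79.0), *Sox17* (73.4), *Pecam1* (71.1), *Tek* (68.0), *Flt1* (59.4) and *Tie1* (51.1). In *Arid1a cKO*, 8 of the 10 genes kept their place, and *Tek* (70.9) stood before *Pecam1* (70.6). With no spread available, neighbours in this order cannot be told apart. By mean level the start peaks ranked from the 82.2 percentile of all peaks (*Tie1*) to the 99.6 percentile (*Sox18*), so all 10 endothelial markers carried the mark in these libraries of mixed tissue.

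Over all 87 peaks, the members had a median difference of 0.08, with an interquartile range of −0.06 to 0.28 (0.01 over all peaks of the table, with −0.33 to 0.30). Of these peaks 52 were above 0, 32 below 0 and 3 at 0, where 50.6% of all peaks were above 0 and 48.3% below. Lower by the fold were 3 member peaks (3.45%), against 10.6% of all peaks. Higher by the fold were 6 member peaks (6.90%), against 4.57% of all peaks. Without *Flt1*, which held 4 of the 6 higher peaks, the median was 0.03. The number of higher peaks was then 2 of 69, a smaller share than over all peaks. With predicted RefSeq transcripts also allowed as nearest genes, 40 member peaks were left, with a median of 0.02, 2 lower and 1 higher. These shares describe the list and were not tested.

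**Figure D2:**
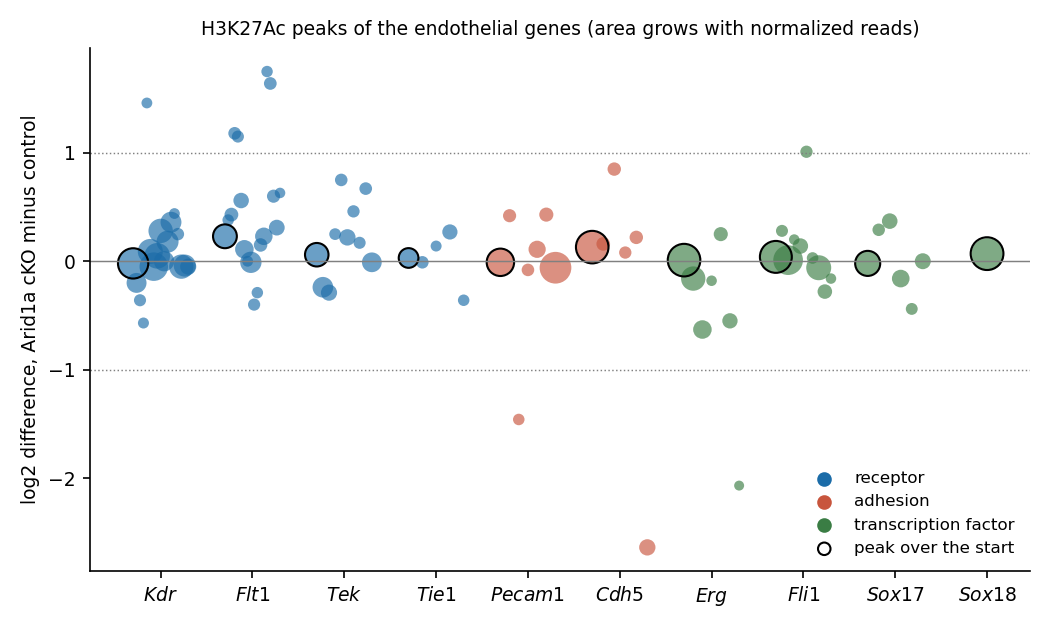
Log2 difference, *Arid1a cKO* minus control (vertical axis), of each of the 87 peaks, by gene (horizontal axis, peaks in order of distance from the start from left to right); colours give the role, circle area grows with the square root of the mean normalized reads, black rings mark the peak over the start and dotted lines mark differences of 1 and −1. The ringed peaks lie between −0.02 and 0.23, the 4 *Flt1* and the single *Kdr* and *Fli1* peaks above the upper line are small, and *Cdh5*, *Erg* and *Pecam1* have 1 peak each below the lower line.

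By role, the 50 receptor peaks had a median difference of 0.16, with 5 higher and 0 lower by the fold (10% and 0%, against 4.57% and 10.6% of all peaks), and *Flt1* held 18 of these peaks and 4 of the 5 higher ones. The 13 adhesion peaks had a median of 0.11, with 2 lower and 0 higher (15.4% and 0%). The 24 transcription factor peaks had a median of 0.00, with 1 lower and 1 higher (4.17% each). By gene, the medians over peaks ran from −0.18 at *Erg* to 0.35 at *Flt1*, with *Tek* at 0.20, *Cdh5* at 0.15, *Sox18* at 0.07, *Fli1* at 0.04, *Tie1* at 0.03, *Kdr* at 0.00 and *Pecam1* and *Sox17* at −0.01. With the reads of all its peaks summed, no gene moved by more than the 0.25 of *Flt1*, and the lowest value was −0.08 at *Erg*.

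*Kdr* (chr5:75932827-75978455, minus strand) had 17 peaks over 107 kb of covered sequence, and 11 of them were in the highest quartile of mean level. Summed over these peaks, it held 5370 normalized reads in control and 5515 in *Arid1a cKO*, a difference of 0.04. Its densest peak in control was not at the start but 143 kb downstream of it (chr5:75833296-75837606), with 108 normalized reads per kb in control and 104 in *Arid1a cKO* (difference −0.05), in the gap between *Kdr* and *Kit*. The upstream peak whose centre is printed above (chr5:76012694-76019763) held 505 and 537 normalized reads (0.09). Of its 17 peaks, 8 were above 0, 8 below 0 and 1 at 0. Its 11 strongest peaks, upstream and downstream of the start, ran from −0.20 to 0.36, the highest of them 103 kb downstream with 208 and 267 normalized reads.

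The single *Kdr* peak past the fold was small and lay in the gene, centred on an exon 28.2 kb downstream of the start (chr5:75949852-75950580). It held 5.35 normalized reads in control and 14.7 in *Arid1a cKO*, a difference of 1.46. A neighbour of like size, 25.7 kb downstream, had 13.4 and 9.0 (−0.57), in the opposite direction.

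*Flt1* (chr5:147561604-147726011, minus strand) had the most peaks, 18, and its means leaned upward. Of these peaks 14 were above 0, 3 below 0 and 1 at 0, and the summed reads were 1187 in control and 1414 in *Arid1a cKO* (0.25). Its 4 peaks past the fold were all higher. An intron peak 111 kb downstream of the start (chr5:147614851-147615874) held 6.19 normalized reads in control and 20.8 in *Arid1a cKO* (1.75). The next intron peak, 119 kb downstream (chr5:147606041-147607889), held 11.6 and 36.0 (1.64). Upstream of the gene, a peak 27.1 kb from the start (chr5:147752627-147753571) held 14.4 and 32.7 (1.18), and a peak 32.5 kb from it (chr5:147758101-147759008) held 11.3 and 25.1 (1.15).

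These *Flt1* peaks were weak in both groups, with at most 36.0 normalized reads. The strong intron peak 79.9 kb downstream (chr5:147643726-147648496) held 261 in control and 260 in *Arid1a cKO* (−0.01), and another one 67.2 kb downstream held 136 and 147 (0.11). The densest *Flt1* peak in control was the one over the start. The higher peaks of *Flt1* thus lay both upstream of the gene and deep in its introns, beside stronger peaks with nearly equal means.

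**Figure D3:**
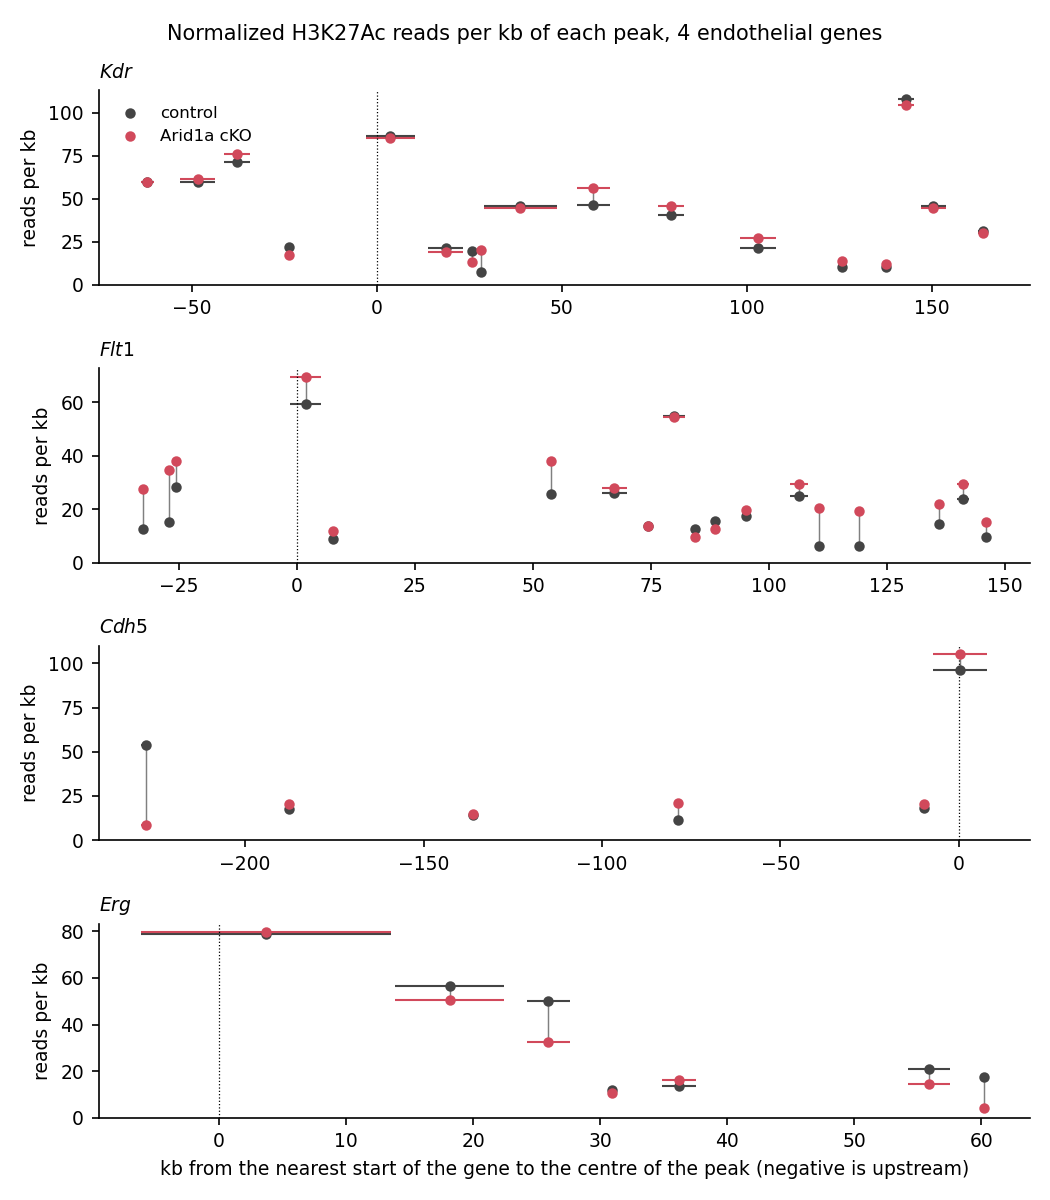
Normalized H3K27Ac reads per kb (vertical axes) of each peak of *Kdr*, *Flt1*, *Cdh5* and *Erg* against the distance in kb from the start to the centre of the peak (horizontal axes, negative is upstream), in control (grey) and *Arid1a cKO* (red), with horizontal bars for the width of the peak and thin lines that join the paired group means. At *Kdr* the paired points lie close together at the strong peaks, at *Flt1* the red points lie above the grey ones in 14 of 18 peaks, at *Cdh5* the peak 228 kb upstream stands at 53.7 and 8.62, and at *Erg* the red points lie below in 5 of 7.

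*Tek* (chr4:94739289-94874976, plus strand) had 10 peaks and none past the fold. Its start peak was also its densest in control (68.0 normalized reads per kb), and 7 of the 10 differences were above 0. The widest gap upward was at a weak peak 18.5 kb upstream, with 16.7 normalized reads in control and 28.1 in *Arid1a cKO* (0.75). Inside the first part of the gene, peaks 7.13 and 12.6 kb downstream held less in *Arid1a cKO*, with 244 against 207 normalized reads (−0.24) and 83.3 against 68.1 (−0.29). Summed over the 10 peaks, *Tek* differed by 0.01.

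*Tie1* (chr4:118471191-118489849, minus strand) had 5 peaks with differences from −0.36 to 0.27, none past the fold. Its start peak was the densest, and the other 4 held no more than 62.7 normalized reads in either group.

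*Pecam1* (chr11:106654213-106715281, minus strand) had 7 peaks. A broad peak of 24.0 kb over the 3′ part of the gene (chr11:106657013-106681001) held more reads than the start peak, 1418 in control and 1361 in *Arid1a cKO* (−0.06), although per kb the start peak was the densest (71.1 against 59.1 in control). One weak intron peak, 10.7 kb downstream of the start (chr11:106703958-106705219), was lower by the fold, with 20.8 normalized reads in control and 7.57 in *Arid1a cKO* (−1.46). The start peak next to it had nearly equal means.

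*Cdh5* (chr8:104101625-104144502, plus strand) had 6 peaks, with the start peak the densest in control. The farthest, 228 kb upstream in intergenic sequence (chr8:103872462-103874997), held 136 normalized reads in control and 21.9 in *Arid1a cKO*, a difference of −2.64 and the largest of the 87 in size. It was also the strongest member peak past the fold, and *Cdh5* was its nearest gene only by position, the next start being that of *Gm29682* at 232 kb. The other 5 *Cdh5* peaks were all above 0, the highest 78.6 kb upstream with 22.2 and 39.9 normalized reads (0.85). A further 4 peaks inside *Cdh5* had *Gm29682* as their nearest gene and were not counted as members; their differences ran from −0.41 to 0.50.

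*Erg* (chr16:95359169-95586593, minus strand) had 7 peaks, all in introns, and 5 of them were below 0. The lowest (chr16:95398869-95399441, 60.2 kb downstream of the nearest start) held 9.99 normalized reads in control and 2.38 in *Arid1a cKO*. Since the second mean was at or under the floor of 3 normalized reads, the fold is a bound, at least 3.33-fold lower (deposited difference −2.07). A stronger intron peak 25.9 kb downstream (chr16:95431720-95435131) held 171 and 111 (−0.63), the lowest difference among the member peaks of the highest quartile. A further one 55.9 kb downstream (chr16:95401827-95405156) held 70.0 and 47.8 (−0.55). The start peak, the densest of *Erg*, and the adjoining peak 18.2 kb downstream (484 and 434 normalized reads, −0.16) moved less.

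*Fli1* (chr9:32422204-32541452, minus strand), which is also expressed in blood cells, had 10 peaks with *Ets1* or *Kcnj1* as the next nearest gene. The start peak was its densest, at 151 normalized reads per kb in control, the highest of the 87. A broad intron peak of 18.8 kb (chr9:32513099-32531869) held 1053 normalized reads in control and 1060 in *Arid1a cKO* (0.01). One weak intergenic peak, 27.3 kb upstream (chr9:32567839-32569682), was higher by the fold at 13.2 and 26.5 normalized reads (1.01), and lay just past the limit of 1. The member peaks nearest to the limits from inside were the *Cdh5* peak at 0.85 on the higher side and the *Erg* peak at −0.63 on the lower side.

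*Sox17* (chr1:4490928-4497354, minus strand) had 6 peaks, with the densest over the gene and the others 36.5 to 126 kb upstream. Their differences ran from −0.44 to 0.37 and none was past the fold. The second strongest, 74.9 kb upstream (chr1:4570909-4573567), held 119 normalized reads in control and 106 in *Arid1a cKO* (−0.16). *Sox18* (chr2:181669837-181671640, minus strand) had only the peak over its start.

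The members' differences were smallest at the strongest peaks. In the highest quartile of mean level, 29 member peaks from all 10 genes had a median of 0.00, a range of −0.63 to 0.36 and a median size of 0.06, where the median size over all peaks of that quartile was 0.14. Lower or higher by the fold were 0 of the 29, against 2.75% and 0.226% of all peaks in the quartile. In the other 3 quartiles, 58 member peaks had a median of 0.21 (0.04 over all peaks there), with 3 lower against 13.2% and 6 higher against 6.02%. In the second quartile, from 18.1 to 44.3 normalized reads, 24 member peaks had a median of 0.36, 20 were above 0 where 53.2% of all peaks in that quartile were, and 4 below 0 where 46.3% were. In it 4 member peaks were higher by the fold, against 4.31%, and 0 lower, against 14.0%. *Flt1* supplied 7 of these 24 peaks and 3 of the 4 higher ones.

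**Figure D4:**
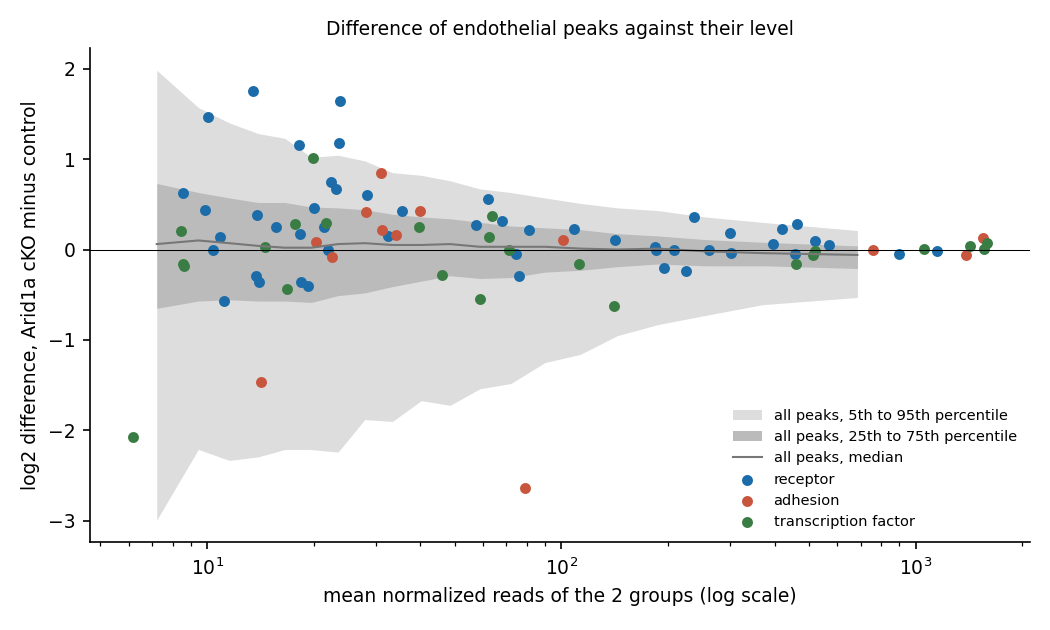
Log2 difference, *Arid1a cKO* minus control (vertical axis), of the 87 endothelial peaks against the mean normalized reads of the groups (horizontal axis, log scale), coloured by role, over bands that hold the interquartile range and the 5th to 95th percentile of all peaks at each level. Above 126 normalized reads the 29 endothelial peaks stay between −0.63 and 0.36, the *Cdh5* point at −2.64 lies far below the band at its level, and most points of the second quartile lie above 0.

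In width and position, the member peaks were broader and farther from starts than those of the table. Introns held 46 of the 87 centres (52.9%) and intergenic sequence 39 (44.8%), against 50.8% and 30.4% of all peaks. Exons held 2 centres (2.30%, against 7.54%). The promoter class, from 1000 bases before to 100 bases after a start, held 0, against 11.3% of all peaks, since the centres of the broad start peaks fell outside that window. Of the 87 peaks 8 (9.20%) were 10 kb or wider, against 1.56% of all, and the median distance to a start was 32.5 kb, against 15.5 kb. The 10 genes had from 1 to 18 peaks each, where the median over 15761 genes was 2.

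The central 300 bases of the member peaks held the ETS letters about as often as those of other peaks. Either ETS form was present in 12 of 87 centres (13.8%), against 14.1% of all 45980. The forkhead and ETS letters were in 5 centres (5.75%, against 3.72%), SOX in 13 (14.9%, against 12.8%) and TEAD in 16 (18.4%, against 16.7%). GATA letters were in 21 (24.1%, against 13.4%), the widest gap of the set. Of the member peaks 11.5% covered a start, against 26.1% of all peaks, and GATA shares were not compared at like positions. These shares are descriptions of short letter runs in windows of equal length, and the absence of a match says nothing about a factor.

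A wider endothelial list of 53 genes was described in the same way. It also held ligand genes expressed largely in other cells, such as *Angpt1* and *Vegfa*, so its summary is not purely endothelial. Peaks were present for 52 of the 53 (*Plvap* had none), 287 in all, with a median difference of 0.05. The 52 peaks over a start had a median of 0.00 and ran from −0.45 to 0.86, with 0 past the fold. Of the 287 peaks 20 were lower by the fold (6.97%) and 9 higher (3.14%), which can be read against the 10.6% and 4.57% of all peaks. Several of the 20 had an *Arid1a cKO* mean at or under the floor of 3 normalized reads, so their folds are bounds. The largest decrease, at a distal *Clec14a* peak, is such a case, with 68.6 normalized reads in control and 1.91 in *Arid1a cKO*. The 10 members had lower peaks in a smaller share (3.45%) and higher ones in a larger share (6.90%). The larger share rested on *Flt1*: without it, 2 of 69 member peaks were higher, a smaller share than in the wider list. This gap between the lists was not tested.

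Among the 9 ligand genes, 1 of 34 peaks was lower and 1 higher by the fold (2.94% each). Over all peaks, 10.6% were lower and 4.57% higher, above the shares of each role below. The lowest medians were *Angpt1* (−0.47, 1 peak) and *Vegfa* (−0.39, 3 peaks), which encode the TEK and KDR ligands made largely by mural cells and myocytes, and the highest *Angpt2* (0.30) and the Notch ligand *Dll4* (0.27). Among the 13 receptors and coreceptors, 5 of 74 peaks were lower (6.76%) and 2 higher (2.70%). The lowest medians were the VEGF coreceptor *Nrp1* (−0.55, 1 peak) and the sphingolipid receptor *S1pr1* (−0.20, 19 peaks), and the highest *Unc5b* (0.28) and the BMP receptor *Acvrl1* (0.25, as at *Flt4*). The 5 lower receptor peaks were all at *S1pr1*, 70.9 to 93.7 kb from its start, the strongest with 519 normalized reads in control and 258 in *Arid1a cKO* (−1.01). The weakest held 10.3 and 1.42, so its fold is a bound, at least 3.45-fold lower.

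Among the 14 transcription factor genes, 8 of 109 peaks were lower (7.34%) and 4 higher (3.67%) by the fold. The shares over all peaks were 10.6% and 4.57%. *Ets2* (−0.25) and the flow-responsive *Klf2* (−0.23) had the lowest medians, and *Foxc1* (0.39) and the venous factor *Nr2f2* (0.24) the highest. Among the 17 junction and surface genes, 6 of 70 peaks were lower (8.57%) and 2 higher (2.86%). *Mmrn2* (−0.48, 3 peaks) and *Icam2* (−0.19, 4 peaks) had the lowest medians, and *Vwf* (0.86) and the mucin gene *Emcn* (0.37) the highest. The low medians came from weak peaks away from the start. The *Mmrn2* start peak held 367 normalized reads in control and 440 in *Arid1a cKO* (0.26), and the *Icam2* start peak 523 and 541 (0.05). The *Vwf* start peak held only 15.1 normalized reads in control and 27.5 in *Arid1a cKO*.

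The other cell types of the ventricle gave reference levels for the endothelial values. Over the starts of cardiomyocyte genes, in the cells where the Cre is active, 16 peaks had a median difference of −0.23, and 15 of them were below 0. Over the starts of fibroblast genes, 11 peaks had a median of 0.38, and 10 were above 0. Mural cell genes (8 start peaks, median 0.03) and macrophage genes (5 start peaks, median 0.17) lay between them, and the 10 endothelial start peaks had a median of 0.04. Over all their peaks, the medians were −0.14 for cardiomyocyte genes (88 peaks, 17 of 18 genes, *Actc1* without a peak), 0.36 for fibroblast genes (66 peaks, 12 of 12 genes), 0.07 for mural genes (41 peaks, 10 of 10) and 0.21 for macrophage genes (12 peaks, 8 of 12).

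In control, the median start peak held 2063 normalized reads for cardiomyocyte, 170 for fibroblast, 321 for mural and 38.1 for macrophage genes, and 960 for the 10 endothelial genes. In *Arid1a cKO* these medians were 1689, 231, 432, 37.5 and 949. A median can fall on different genes in each group, so these paired medians do not give the change of a list. Peak by peak, 4 mural start peaks were above 0 and 4 below (median 0.03), and 4 of 5 macrophage ones were above 0 (median 0.17). Peaks were absent at the macrophage genes *Adgre1*, *Lyz2*, *F13a1* and *Cd163*. *Tagln*, a smooth muscle gene of the mural list, was the one marker of the 4 lists past the fold at its nearest peak. This peak was weak, with 15.6 normalized reads in control and 33.1 in *Arid1a cKO* (1.09). Over all peaks that covered a start, 1.70% were lower and 1.16% higher by the fold, so a single such marker is not a result about its list. The part of these marker shifts in the endothelial differences was not tested.

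**Figure D5:**
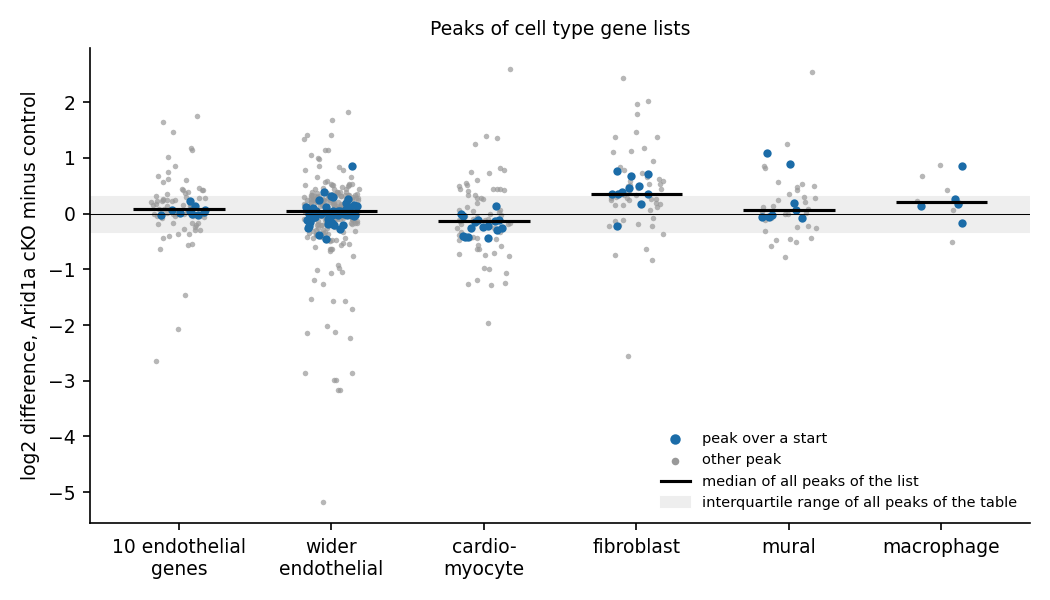
Log2 difference, *Arid1a cKO* minus control (vertical axis), of the peaks of 6 gene lists (horizontal axis); blue points are peaks over a start, grey points other peaks, black lines the median over all peaks of a list and the pale band the interquartile range of all peaks in the table (−0.33 to 0.30). Blue points of the 10 endothelial genes sit near 0 (−0.02 to 0.23), those of cardiomyocyte genes mostly below 0 (median −0.23) and those of fibroblast genes mostly above (median 0.38).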

How the data were processed

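H3K27Ac and input chromatin of P7 ventricles was sequenced from 2 control and 2 *Arid1a cKO* samples. Alignment to mm10 used BWA 0.7.17-r1188, and HOMER made the peaks (the labels and the study's methods differ on its version), with the pooled input reads as background. The authors dropped peaks seen in a single sample and ran DiffBind 2.12.0 with DESeq2 1.24.0. The deposited log2 values are mean normalized reads of a peak over all samples and in each group. Library scaling and input subtraction are not given in the sources used here, and either could shift the differences. The table holds 0 columns per sample, so depth is unknown and no test was fitted. Its columns of the authors' comparison (fold change, p-value, FDR) were not used.

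Peak centres were joined to the nearest of 45756 curated RefSeq transcripts of GRCm38.p6, and 7 peaks on unplaced sequences of the 45987 were left out. Group means of 3 or fewer normalized reads were set as a floor. Described were, for each member, the peaks nearest to a start, densest in control and past the fold; for each role of the wider list, the 2 lowest and 2 highest medians; and for other cell types, whole lists and markers past the fold at their nearest peak. A few further peaks were picked after their values were seen. Members and lists were chosen with earlier results of these data known. Steps were tested on simulated data and run with Python 3.11.15, numpy 2.4.6, pandas 2.3.3, scipy 1.17.1 and matplotlib 3.10.9.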

Additional observations from a re-analysis of the deposited data

How the results depend on the processing

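With 1 group mean per peak, no library could be left out and depth sets an unknown limit. No paired analysis was possible because the table holds no value per library. The members' median difference (0.08), share below 0 (36.8%) and counts past the fold (3 lower, 6 higher) were recomputed under 10 alternatives, 1 of them (without *Kdr*, median 0.11) chosen after seeing the data. No median changed sign, and the share below 0 ran from 34.3% to 45.0%, mostly over subsets of the same peaks. Predicted RefSeq transcripts as possible nearest genes left 40 member peaks, with a median of 0.02 and 1 higher peak. Without *Flt1* the median was 0.03, with 2 higher peaks, and the median of the gene medians was 0.0325. The 3 lower peaks became 1 in each of 3 settings: every peak within 50 kb of a member start, only nearest-gene peaks within 50 kb, and without the lowest quartile of levels. At a difference of 0.5, 6 of the 87 member peaks were lower and 12 higher, against 19.5% and 15.2% of all peaks. Both member shares were then below those of all peaks. At a difference of 1, the share of higher peaks was above that of all peaks, so this order depends on the threshold. The other 24 values counted as close to those reported by set limits. For the share below 0 the limits were 27.4% and 47.3%, an interval that treats peaks of the same gene as independent. It is wide, so 45.0% counted as close to 36.8%.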
